A study of Rattus norvegicus with 16 samples.

Results

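The genes described here encode the machinery that moves acid and base across the epithelium of the epididymis: the subunits of the vacuolar proton pump (V-ATPase), the carbonic anhydrases, and the bicarbonate and sodium-hydrogen exchangers. They were taken by gene symbol, as all names beginning Atp6v0, Atp6v1, Atp6ap, Car or Ca with a number, Slc4a and Slc9a, plus Nherf1, the current symbol of Slc9a3r1. This gave 52 of the 14217 genes that the arrays represented by a probe set with 1 symbol: 12 subunits of the V1 sector, 8 of the V0 sector, 3 accessory proteins, 14 carbonic anhydrases, 8 genes of the Slc4 family, and 7 of the Slc9 family with Nherf1. A gene with several probe sets was read from the one whose mean over the 16 arrays was highest.

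The tissue was the initial segment of the epididymis, its most proximal part (zones 1a and 1b), from normal adult male Sprague-Dawley rats. The efferent ducts of 1 side were ligated (EDL), which keeps testicular fluid from entering that epididymis, and the other side of the same animal was sham-operated. There were 4 groups of 4 arrays each: 6 h EDL, 12 h EDL, 18 h EDL and sham. The labels number the replicates from 1 to 4 in each group without saying that a number stands for an animal, so p-values measure the spread between these arrays, and 1 sham group served for all 3 times.

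In the epididymis, V-ATPase in the apical membrane of narrow cells (initial segment) and clear cells (further along the duct) secretes protons into the lumen. Carbonic anhydrases supply protons and bicarbonate from carbon dioxide and water. Slc4 and Slc9 proteins carry bicarbonate out of or into the cells and exchange sodium for protons. The low pH and low bicarbonate of the lumen are known for keeping sperm quiescent while they mature and are stored.

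Of the 52 genes, 32 reached a log2 value of 5 on at least 4 of the 16 arrays and were tested, as were 8344 of all 14217 genes. The other 20 did not reach that level, and 12 of them lay within 0.01 of the lowest value of the table, 2.22, on every array. The tested genes were 10 of 12 in the V1 sector, 8 of 8 in the V0 sector, 2 of 3 accessory proteins, 4 of 14 carbonic anhydrases, 5 of 8 in the Slc4 family and 3 of 7 in the Slc9 group. Of the genes that mark acid-secreting cells, Atp6v1b1, the B1 subunit typical of clear and narrow cells, had a highest value of 2.29 on any array. Atp6v0d2 had no probe set carrying its symbol alone. A value under the minimum says only that the probe set did not stand out from background.

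Most of the acid-base genes did not pass the test at any time, and the same held for most of all tested genes at each time. At 6 h EDL, 0 of the 32 genes were called by limma (adjusted p under 0.05, Benjamini-Hochberg over all 13410 tested probe sets), and 0 had an unadjusted p under 0.05. Over all genes, 0.36% were called and 6.02% had an unadjusted p under 0.05. At 12 h EDL, 2 of 32 were called (6.25%), with Nherf1 higher and Atp6v0a4 lower than in sham, while 8.75% of all genes were called. By 18 h EDL the called member was Nherf1 (1 of 32, 3.12%), against 11.1% of all genes. The number of members is small, and no test of the families as sets was made.

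The differences from sham were mostly small. The median absolute log2 difference over the 32 genes was 0.115 at 6 h, 0.175 at 12 h and 0.118 at 18 h EDL, and over all tested genes it was 0.110, 0.173 and 0.184. A difference of 2-fold or more was seen for 1 member at 6 h, 1 at 12 h and 0 at 18 h EDL. That member was Car3 both times, and it was not called. Over all tested genes, 1.16%, 5.61% and 6.21% differed by 2-fold or more at 6, 12 and 18 h EDL. The 95% confidence interval of the difference lay wholly within a 2-fold change in either direction for 29, 28 and 27 of the 32 members at these times, and within a 1.5-fold change for 21, 15 and 17.

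**Figure D1:**
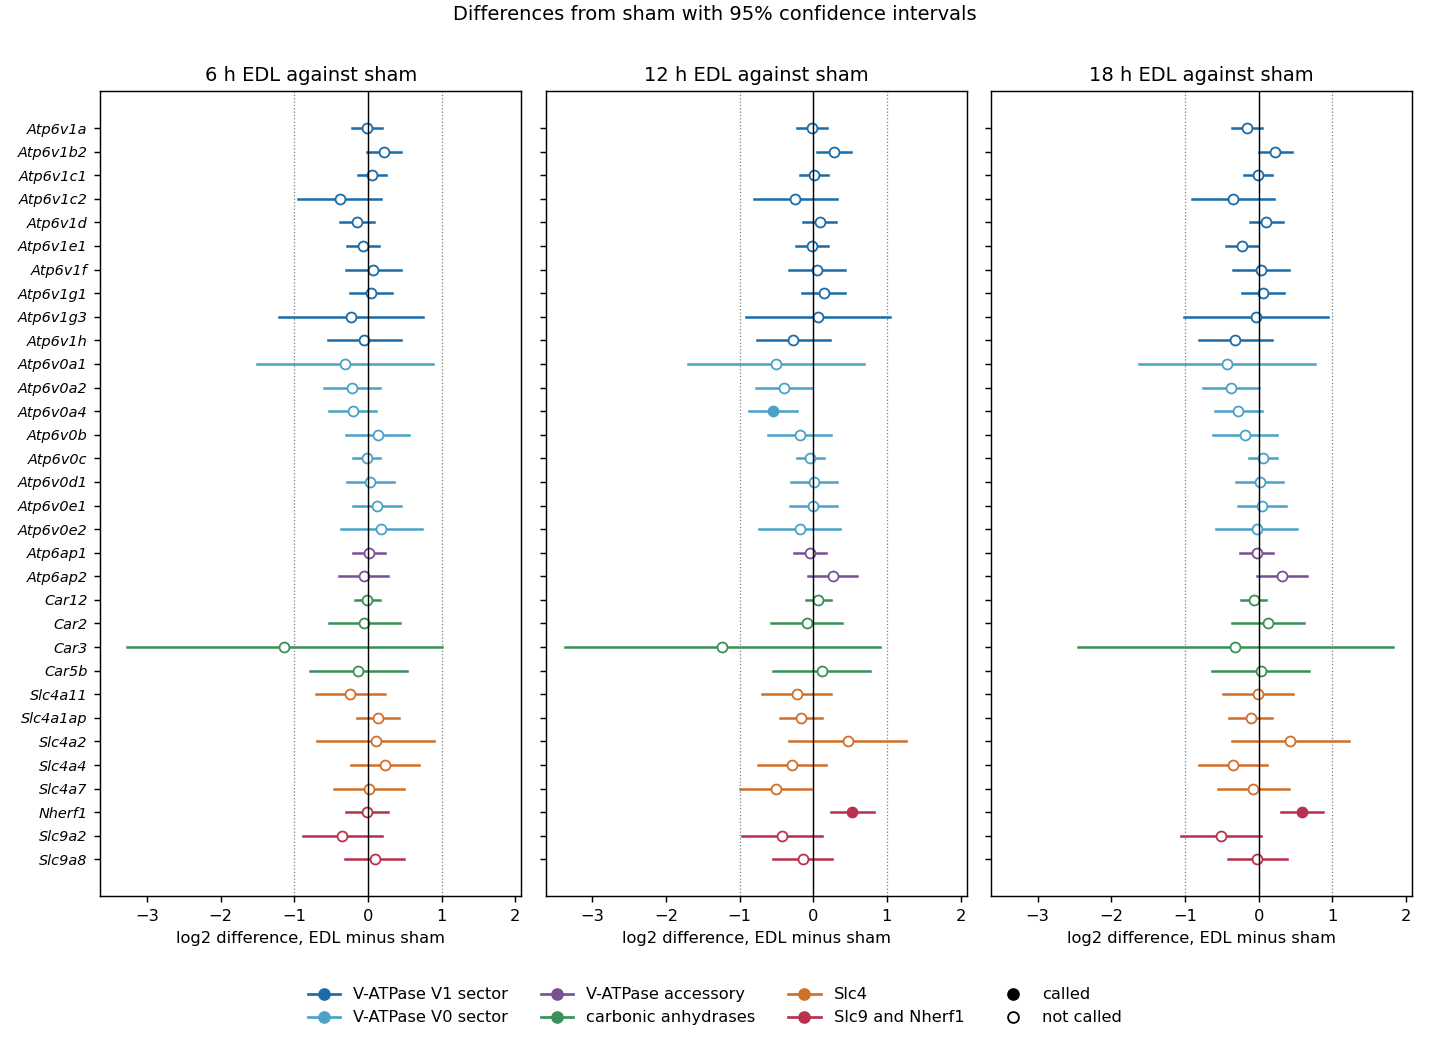
Log2 difference from sham (x axis) of each of the 32 tested acid-base genes (y axis, by family) at 6, 12 and 18 h EDL, with lines for the 95% confidence intervals from limma over 4 arrays a group and dotted lines at a 2-fold change. Filled points passed the test: Atp6v0a4 at 12 h, and Nherf1 at 12 h (0.53) and 18 h (0.59).

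Nherf1 encodes a scaffold with PDZ domains that holds Slc9a3, Cftr and ezrin at the apical membrane. Its log2 values were 9.78, 9.74, 10.09 and 9.96 in 6 h EDL, 10.53, 10.66, 10.27 and 10.27 in 12 h EDL, 10.53, 10.69, 10.52 and 10.24 in 18 h EDL, and 9.93, 10.16, 9.78 and 9.75 in sham replicates 1 to 4. All 8 arrays of 12 and 18 h EDL lay above all 4 sham arrays, and the 6 h arrays overlapped sham. Means were 9.89 ± 0.16 in 6 h EDL, 10.43 ± 0.20 in 12 h EDL, 10.50 ± 0.19 in 18 h EDL and 9.91 ± 0.19 in sham (SD, n = 4 each).

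Nherf1 thus rose by 0.53 ± 0.14 (SE) at 12 h EDL, to 144% of its sham level (95% interval 0.24 to 0.82, limma adjusted p = 0.0276), and by 0.59 ± 0.14 at 18 h EDL, to 151% (0.30 to 0.88, adjusted p = 0.012). The 6 h difference was -0.01. In this whole-tissue RNA, a change in the number of cells of a type and a change in RNA per cell cannot be told apart. The 12 h call was lost when sham replicate 3 or 4, or 12 h EDL replicate 1 or 2, was left out (adjusted p 0.0792 to 0.0892), and in a fit of only the 12 h and sham arrays (adjusted p = 0.0915). The 18 h call was kept with each of the 16 arrays left out in turn, and was lost in replicates 1 and 2 alone (adjusted p = 0.0645) and with the probe sets of a gene averaged (adjusted p = 0.0835). A further probe set of Nherf1, with a mean of 5.92, differed by 0.70 at 12 h and 0.56 at 18 h EDL and was not called (adjusted p = 0.23 and 0.324).

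The promoters of the called members are shown because those genes moved in opposite directions. Each line gives the 250 bases before the RefSeq start of transcription in the rat assembly GRCr8, 5′ to 3′ on the strand of the gene. The Nherf1 window is chr10:100901915-100902164 on the plus strand, and the Atp6v0a4 window is chr4:67809093-67809342 on the minus strand. Capitals mark matches on either strand to GGGCGG, the GC box bound by Sp1-type factors. CACGTG, the E-box core, and CCGGAA, an Ets core, were searched the same way and had no match in these windows.
Nherf1: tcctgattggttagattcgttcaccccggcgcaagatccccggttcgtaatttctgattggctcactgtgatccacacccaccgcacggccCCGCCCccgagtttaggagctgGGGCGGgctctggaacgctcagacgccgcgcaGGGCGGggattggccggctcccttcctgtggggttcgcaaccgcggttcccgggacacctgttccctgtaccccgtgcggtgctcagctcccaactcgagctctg
Atp6v0a4: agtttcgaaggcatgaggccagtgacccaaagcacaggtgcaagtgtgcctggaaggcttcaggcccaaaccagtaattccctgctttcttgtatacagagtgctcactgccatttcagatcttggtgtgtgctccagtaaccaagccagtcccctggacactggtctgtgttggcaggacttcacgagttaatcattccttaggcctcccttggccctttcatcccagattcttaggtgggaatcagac

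The GC box occurred 3 times in the Nherf1 window, whose GC content was 64.8%, and 0 times in that of Atp6v0a4, with 51.6%. Of the 52 members, 40 were in the promoter table. GGGCGG was found in 20 of these 40 windows (50%), against 32.4% of the 27457 promoters in the table; their median GC content was 58.4%, against 52.0% in all promoters. CCGGAA was found in 10 of 40 (25.0%, against 13.4%) and CACGTG in 3 of 40 (7.5%, against 5.79%). Members above the minimum level had GGGCGG in 15 of 24 windows (62.5%), with a median GC content of 57.2%. The other members had it in 5 of 16 (31.2%), with a median of 58.8%. For CCGGAA these shares were 33.3% and 12.5%, and for CACGTG they were 4.17% and 12.5%. These matches describe the letters only, and the part of GC content in these shares was not tested.

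The V0 sector is the membrane ring of the proton pump. Its a subunits (Atp6v0a1, Atp6v0a2 and Atp6v0a4) hold the proton path and steer the pump to different membranes, and a4 is the isoform of proton-secreting cells in kidney and epididymis. Atp6v0a4 values were 5.18, 5.41, 5.41 and 5.57 in 6 h EDL, 4.78, 4.82, 5.22 and 5.40 in 12 h EDL, 5.51, 5.24, 5.02 and 5.53 in 18 h EDL, and 5.57, 5.68, 5.55 and 5.59 in sham. All of the 12 h and 18 h arrays lay below all 4 sham arrays, close to the minimum level of 5.

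Atp6v0a4 fell by 0.54 ± 0.15 on the log2 scale at 12 h EDL, to 68.6% of its sham level (95% interval -0.87 to -0.22, limma adjusted p = 0.0401). At 18 h EDL its difference was -0.27 (adjusted p = 0.319). Replicates 1 and 2 gave a 12 h difference of -0.83 and replicates 3 and 4 one of -0.26. The call was lost when any of 8 of the 16 arrays was left out (adjusted p 0.0536 to 0.129). Those arrays were sham replicates 1 to 4, 6 h EDL replicates 2 and 3, and 12 h EDL replicates 1 and 2.

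The other V0 subunits were not called. Atp6v0c, the proteolipid of the rotating ring, had means of 11.94, 11.91, 12.02 in 6, 12 and 18 h EDL and 11.95 in sham, with differences of -0.02, -0.04 and 0.06. Atp6v0d1, the stalk subunit found in all tissues, differed by 0.03, 0.01 and 0.01, with a 95% interval of -0.31 to 0.33 at 12 h. Atp6v0a2, the a subunit of Golgi and endosomes, ranged from 5.60 to 6.28 in 12 h EDL, 6.08 to 6.20 in 18 h EDL and 6.31 to 6.84 in sham. Its groups did not overlap with sham at either time, and 3 of the 12 h arrays and 1 of the 6 h arrays held the identical value of 6.28. Its differences of -0.39 and -0.38 had limma adjusted p-values of 0.238 and 0.233. A further Atp6v0a2 probe set, with a mean of 5.87, differed by only -0.12 at 12 h and -0.03 at 18 h EDL. Over the 8 V0 genes the median difference was 0.01, -0.18 and -0.10 at 6, 12 and 18 h EDL; over all tested genes it was 0.02, 0.03 and 0.03.

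The V1 sector is the cytosolic part of the pump, which splits ATP. Atp6v1a, the catalytic A subunit, had values of 10.02 to 10.20 in 6 h EDL, 10.02 to 10.21 in 12 h EDL, 9.86 to 10.06 in 18 h EDL and 9.96 to 10.30 in sham, with differences of -0.01, -0.01 and -0.16. These ranges overlapped at every time. Atp6v1b2, the B subunit found in most tissues, had values of 9.06, 8.89, 8.90 and 8.81 in 12 h EDL, 8.89, 9.01, 8.87 and 8.67 in 18 h EDL, and 8.73, 8.61, 8.67 and 8.51 in sham. At 12 h EDL all 4 of its arrays lay above sham by a small margin, and the difference of 0.28 ± 0.11 was not called (limma adjusted p = 0.137). A further probe set of Atp6v1b2 differed by 0.12 at 12 h and by -0.28 at 18 h EDL.

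Atp6v1g3 and Atp6v1c2 are subunit isoforms with a narrow distribution, known from the proton-secreting cells of the kidney. Atp6v1g3 values were 6.42, 7.55, 8.06 and 8.51 in 6 h EDL, 7.64, 7.38, 8.33 and 8.40 in 12 h EDL, 7.52, 7.31, 8.51 and 8.02 in 18 h EDL, and 7.81, 6.87, 8.71 and 8.07 in sham. In each group replicates 3 and 4 were the higher arrays, and the differences from sham were -0.23, 0.07 and -0.03 with an SE of 0.46. For Atp6v1c2 the differences were -0.38, -0.24 and -0.35, none of them called. Over the 10 V1 genes the median was -0.03, 0.03 and -0.02 at the 3 times, with 0 called at each. The numbers with an unadjusted limma p under 0.05 over all 32 members were 0, 5 and 3. Over all tested genes, 6.02%, 20.9% and 23.3% had such a p at 6, 12 and 18 h EDL.

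Of the accessory proteins, Atp6ap1 (Ac45), which guides assembly and sorting of the pump, had means of 11.13 in 6 h EDL, 11.07 in 12 h EDL, 11.08 in 18 h EDL and 11.11 in sham. Atp6ap2, the (pro)renin receptor, had values of 10.10, 9.84, 9.35 and 9.44 in 12 h EDL, 9.73, 9.62, 9.74 and 9.86 in 18 h EDL, and 9.61, 9.47, 9.22 and 9.39 in sham. Its 18 h arrays all lay above the sham arrays, the lowest by 0.02, and the difference of 0.32 ± 0.16 was not called (limma adjusted p = 0.254). A further Atp6ap2 probe set differed by 0.32 at 18 h EDL, also not called.

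Groups that did not overlap with sham numbered 4 members at 12 h EDL (Atp6v0a2, Atp6v0a4, Atp6v1b2 and Nherf1) and 4 at 18 h EDL (Atp6ap2, Atp6v0a2, Atp6v0a4 and Nherf1), or 12.5% of the 32 each time. Over all tested genes the share was 12.9% at 12 h and 15.7% at 18 h, so the members' share was near the background.

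Of the 14 carbonic anhydrases, 4 were tested and 0 were called at 6, 12 or 18 h EDL. Car2, the fast cytosolic enzyme, had values of 5.33, 5.33, 5.48 and 5.19 in 6 h EDL, 5.07, 5.07, 5.93 and 5.08 in 12 h EDL, 5.54, 5.48, 6.07 and 4.92 in 18 h EDL, and 5.20, 5.60, 5.39 and 5.33 in sham. Its groups overlapped at each time, and the differences were -0.05, -0.09 and 0.13 with an SE of 0.23. Car12, a membrane enzyme facing outward, differed by -0.01, 0.07 and -0.07, with all 16 values between 5.38 and 5.78 and the identical value of 5.66 on 9 of the arrays. Car5b, a mitochondrial form, differed by -0.13, 0.11 and 0.03. Car4, which is anchored to the membrane by a lipid, lay at 2.22 on all 16 arrays, and Car14, another membrane form, reached 3.82 at most.

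Car3 showed the widest spread of the 32 members. This cytosolic form is abundant in fat and skeletal muscle. Its values were 4.88, 5.39, 6.86 and 5.86 in 6 h EDL, 4.90, 8.21, 6.19 and 3.30 in 12 h EDL, 8.83, 7.76, 5.10 and 4.59 in 18 h EDL, and 7.0, 7.25, 7.10 and 6.19 in sham. The 12 h arrays alone spread from 3.30 to 8.21, and the differences of -1.14, -1.24 and -0.32 (SE 1.00) were not called.

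The fat markers tested beside Car3 were Fabp4 and Cfd. Fabp4, the fatty acid binding protein of fat cells, read 3.99, 4.70, 6.36 and 5.31 in 6 h EDL, 4.65, 7.37, 6.11 and 3.40 in 12 h EDL, 7.25, 7.10, 3.70 and 3.73 in 18 h EDL, and 5.68, 5.95, 6.14 and 4.98 in sham. The highest and the lowest array of each ligated group were the same for Fabp4 and Car3, apart from the lowest at 18 h EDL. Cfd (adipsin), secreted by fat cells, read 3.33, 2.83, 2.56 and 2.63 in 6 h EDL, 3.92, 6.35, 4.27 and 2.22 in 12 h EDL, 6.61, 5.96, 2.81 and 3.92 in 18 h EDL, and 5.91, 4.78, 3.94 and 3.75 in sham. It shared the highest and lowest arrays of Car3 at 12 h EDL, and at 6 h EDL its order differed, with its lowest value on the array where Car3 was highest. Of 7 fat markers apart from Car3, 2 were tested and 0 called, Lep lay at the lowest value on every array, and the log2 of their summed level ranged from 5.83 to 6.90 in 6 h EDL, 5.53 to 8.11 in 12 h EDL, 5.67 to 8.15 in 18 h EDL and 6.24 to 7.15 in sham. Of 2 tested skeletal muscle markers, Acta1 differed by -0.90 at 6 h (limma adjusted p = 0.0422) and by 0.61 at 18 h EDL (adjusted p = 0.0355). The part of fat or muscle in the Car3 values was not tested.

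**Figure D2:**
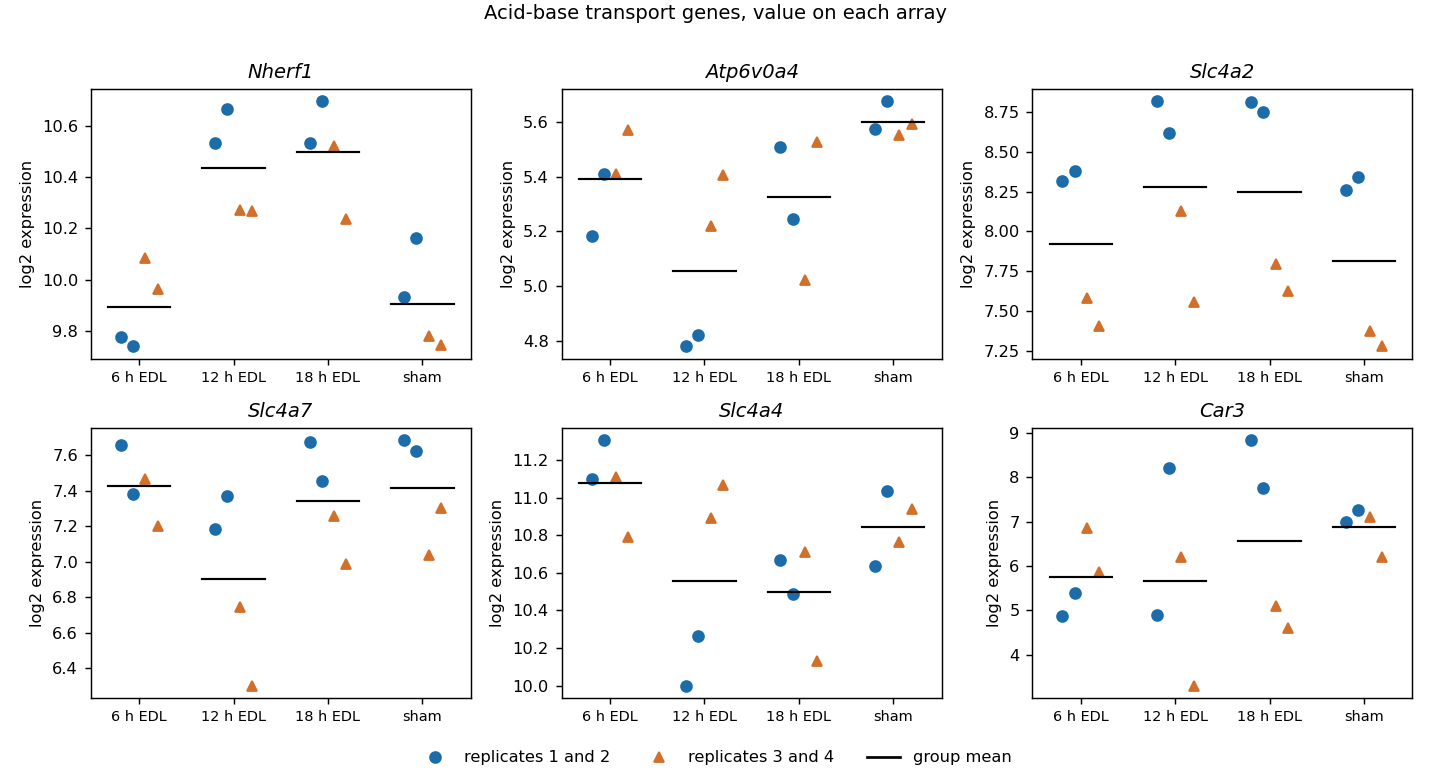
Log2 expression (y axis) of 6 acid-base genes on each of the 16 arrays, by group (x axis), with lines for the group means. Circles are replicates 1 and 2 and triangles replicates 3 and 4: in Slc4a2 the triangles lie below the circles in every group, and in Nherf1 all 12 h and 18 h arrays lie above sham.

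The Slc4 genes encode bicarbonate transporters, apart from Slc4a1ap, an adaptor protein that shares the name. None of the 5 tested genes was called at 6, 12 or 18 h EDL without a term for the replicates. Slc4a2 (AE2), the basolateral chloride-bicarbonate exchanger, had values of 8.31, 8.38, 7.58 and 7.41 in 6 h EDL, 8.82, 8.62, 8.13 and 7.56 in 12 h EDL, 8.81, 8.75, 7.80 and 7.63 in 18 h EDL, and 8.26, 8.34, 7.38 and 7.28 in sham. Replicates 1 and 2 were higher than replicates 3 and 4 in all 4 groups. Within replicates 1 and 2, and within replicates 3 and 4, every 12 h and 18 h array lay above both sham arrays.

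The Slc4a2 difference was 0.46 ± 0.37 at 12 h and 0.43 ± 0.37 at 18 h EDL, not called (limma adjusted p = 0.577 and 0.566). With the division of replicates 1 and 2 from 3 and 4 as a block, the same differences were called (adjusted p = 0.0149 and 0.0186), and with 3 array sets as a block the adjusted p was 0.0489 and 0.0595. The differences within replicates 1 and 2 were 0.42 and 0.48, and within replicates 3 and 4 they were 0.51 and 0.38.

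Slc4a7 (NBCn1), which brings sodium and bicarbonate into the cell, had values of 7.66, 7.38, 7.47 and 7.20 in 6 h EDL, 7.19, 7.37, 6.74 and 6.30 in 12 h EDL, 7.67, 7.46, 7.26 and 6.98 in 18 h EDL, and 7.68, 7.62, 7.04 and 7.30 in sham. The 12 h arrays were the lowest within both replicate pairs. Its 12 h difference of -0.51 ± 0.22 was not called (limma adjusted p = 0.214) and was called with the replicate division as a block (adjusted p = 0.0282), and with 3 array sets the adjusted p was 0.193. At 18 h EDL the difference was -0.07.

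Slc4a4 (NBCe1), the basolateral sodium-bicarbonate cotransporter, had values of 11.10, 11.30, 11.11 and 10.79 in 6 h EDL, 10.00, 10.27, 10.89 and 11.07 in 12 h EDL, 10.67, 10.49, 10.71 and 10.13 in 18 h EDL, and 10.64, 11.03, 10.76 and 10.94 in sham. The groups overlapped with sham at all 3 times. Its differences were 0.23, -0.29 and -0.34 with an SE of 0.22. At 12 h EDL replicates 1 and 2 gave -0.70 and replicates 3 and 4 gave 0.13. Over the 5 tested Slc4 genes the median difference was 0.11, -0.23 and -0.07 at 6, 12 and 18 h EDL.

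Among the sodium-hydrogen exchangers, Slc9a2 (NHE2), an apical form, had values of 6.74, 6.53, 7.0 and 7.23 in 6 h EDL, 7.09, 7.25, 6.01 and 6.82 in 12 h EDL, 6.70, 6.30, 6.70 and 7.14 in 18 h EDL, and 7.45, 7.02, 6.99 and 7.42 in sham. The groups overlapped, and the differences of -0.35, -0.43 and -0.51 (SE 0.25) were not called (limma adjusted p = 1, 0.405 and 0.26). Slc9a8 (NHE8), a form of the Golgi and the apical membrane, differed by 0.09, -0.14 and -0.01. Slc9a3 (NHE3), the main apical exchanger of the kidney proximal tubule and the partner for which Slc9a3r1 was named, was not tested. It lay within 0.01 of the lowest value on 11 arrays and reached 5 on 2, sham replicate 2 (5.81) and 18 h EDL replicate 1 (5.62).

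Between the ligated groups, Nherf1 was again the called member. It was higher at 12 h than at 6 h EDL by 0.54 ± 0.14 (limma adjusted p = 0.0373) and at 18 h than at 6 h EDL by 0.60 ± 0.14 (adjusted p = 0.0136), with no overlap in either comparison. The 12 h against 6 h call was lost when any of 7 arrays was left out: 6 h EDL replicates 1 to 4, 12 h EDL replicates 1 and 2, and 18 h EDL replicate 1 (adjusted p 0.0505 to 0.11). Within replicates 3 and 4 that difference was 0.25. The 18 h against 6 h call was lost within replicates 3 and 4 (0.35, adjusted p = 0.19) and with probe sets averaged (adjusted p = 0.0967). These comparisons called 1 of 32 members each (3.12%), where 4.73% and 8.65% of all genes were called. Between 18 h and 12 h EDL limma called 0 of 32 members, with 0 at an unadjusted p under 0.05, and 0% of all genes, of which 562 had an unadjusted p under 0.05. Slc4a4 was lower in every 18 h array than in every 6 h array, by 0.58 ± 0.22, and was not called (limma adjusted p = 0.123). Groups also did not overlap for Slc4a1ap between 12 h and 6 h and for Atp6ap2 between 18 h and 6 h EDL. The share of all genes without overlap between ligated groups was not computed, so nothing is read from these separations.

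The arrays divided along their replicate numbers, and several acid-base genes followed that division more than the ligation. With the group in the model, 13 of the 32 members (40.6%) followed the division, with 9 of them higher and 4 lower in the second pair (replicates 3 and 4) than in the first (1 and 2). Over all genes the share was 34.6%. All 9 of the higher members were V-ATPase genes. Among those called, the differences were largest for Atp6v0a1 (-1.43 ± 0.12, limma adjusted p = 2.41e-06), Atp6v1g3 (1.02 ± 0.18, adjusted p = 0.000841) and Slc4a2 (-0.94 ± 0.08, adjusted p = 3.31e-06). Atp6v0a1, the a1 isoform best known from neurons, lay between 8.61 and 9.29 in all replicates 1 and 2 and between 7.18 and 8.22 in all replicates 3 and 4. The labels do not say what the replicate numbers stand for. Replicates 3 and 4 of sham and 6 h EDL also read 7.10 to 7.93 for a control transcript (dap) that lay at 2.22 on the other 12 arrays. For replicates 3 and 4, ligation for 12 or 18 h and that array set therefore cannot be told apart.

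**Figure D3:**
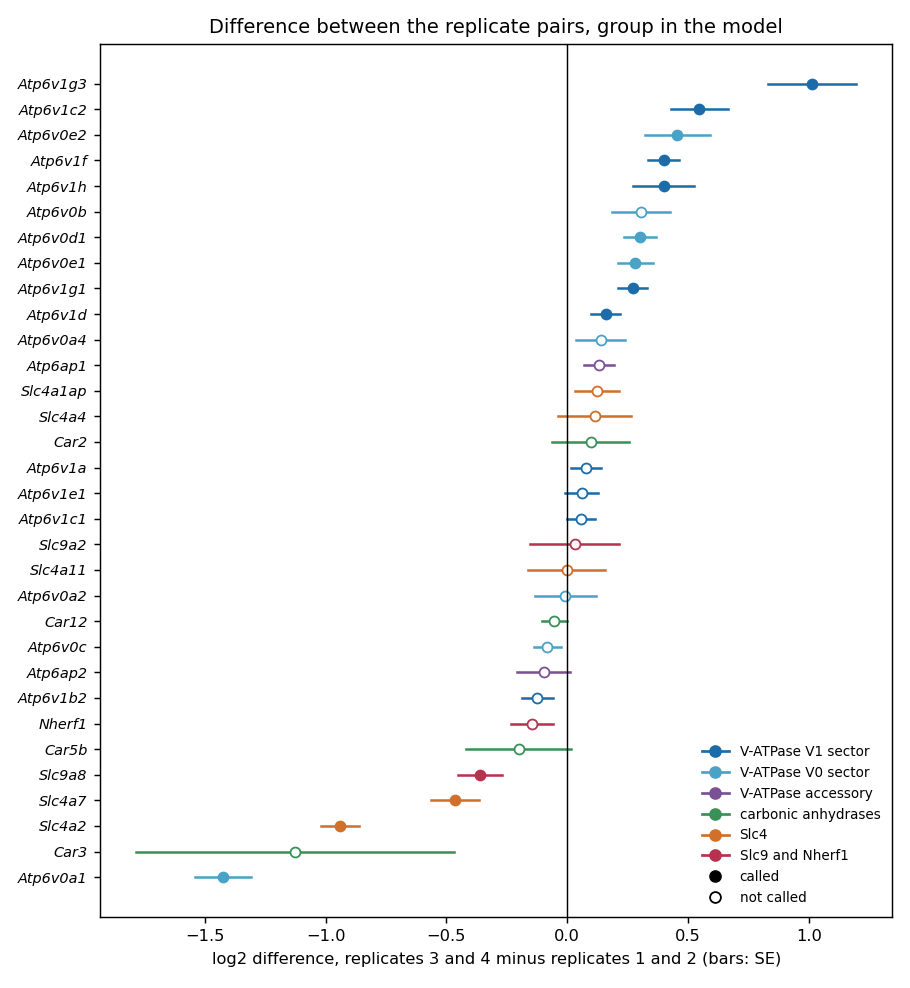
Log2 difference between replicates 3 and 4 and replicates 1 and 2 (x axis) for each of the 32 tested acid-base genes (y axis), with the group in the model and lines for the SE. Filled points passed the test (13 genes), from 1.02 for Atp6v1g3 to -1.43 for Atp6v0a1.

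With the replicate division as a block, 4 members were called at 12 h EDL (Nherf1 and Slc4a2 higher, Atp6v0a4 and Slc4a7 lower) and 2 at 18 h EDL (Nherf1 and Slc4a2, both higher). Of all genes, 13.9% and 16.7% were called in that fit at 12 and 18 h. Nherf1 had an adjusted p of 0.0124 at 12 h and 0.00527 at 18 h EDL there. Its differences were 0.55 and 0.57 within replicates 1 and 2 and 0.51 and 0.61 within replicates 3 and 4. With 3 array sets as a block it had adjusted p-values of 0.0121 and 0.00627, while Atp6v0a4 at 12 h had 0.0513.

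Beyond the families, 12 genes linked to the V-ATPase were tested. They encode proteins that assemble or bind it, its subunit Tcirg1, the actin-severing protein Gsn, and the regulators Tfeb and Tfe3. At 12 h EDL 1 was called higher and 0 lower, and at 18 h EDL 1 higher and 1 lower. Of all genes, 8.75% and 11.1% were called at these times, and a list of 12 genes is too small to set its count apart from that. With the replicate division as a block, 2 more were called at 12 h EDL, Rogdi (0.56, adjusted p = 0.0253, against 0.0917 without the block) and Oxr1 (-0.45, adjusted p = 0.045, against 0.137); Rogdi is named here after its values were seen. Ncoa7 encodes a TLDc-domain protein that binds the pump in mouse kidney. It read 7.77, 7.71, 8.43 and 7.75 in 12 h EDL, 8.04, 8.24, 8.31 and 8.13 in 18 h EDL, and 6.86, 7.25, 7.38 and 7.52 in sham, with no overlap. Ncoa7 rose by 0.66 ± 0.17 (limma adjusted p = 0.0262) and 0.93 ± 0.17 (adjusted p = 0.00246). Oxr1, of the same domain family, read 9.91, 9.74, 10.00 and 10.44 in 18 h EDL and 10.48, 10.51, 10.64 and 10.99 in sham, and fell by 0.63 ± 0.17 on the log2 scale at 18 h (adjusted p = 0.0298). Dmxl1, Dmxl2 and Rogdi, which drive assembly of the pump, Vma21, Tmem199 and Ccdc115 of its biogenesis in the endoplasmic reticulum, Tcirg1 (subunit a3), Gsn, an actin-severing protein, and Tfeb and Tfe3, regulators of lysosomal genes, were not called without the block. The smallest p of these genes at 6 h EDL was that of Ccdc115, with a difference of 0.17 (adjusted p = 0.815).

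Of 13 tested genes of other acid-base and ion transport, 2 were called at 12 h and at 18 h EDL and 0 at 6 h. The share over all genes was 8.75% at 12 h and 11.1% at 18 h. A list of 13 genes is too small to set its count apart from that share. Clcn3, a chloride-proton exchanger of endosomes, read 9.04, 9.07, 9.25 and 9.36 in 12 h EDL, 9.57, 9.03, 9.63 and 9.40 in 18 h EDL, and 9.81, 10.48, 10.50 and 10.49 in sham. Clcn3 fell by 1.13 ± 0.17 at 12 h EDL (45.6% of sham, limma adjusted p = 0.000696) and by 0.91 ± 0.17 at 18 h EDL (53.3%, adjusted p = 0.00283). Slc16a1, the transporter that carries lactate together with a proton, read 6.88, 7.24, 5.58 and 5.53 in 12 h EDL, 6.61, 6.92, 6.82 and 6.07 in 18 h EDL, and 4.86, 4.31, 4.12 and 4.62 in sham. All 4 sham arrays and 3 of the 4 arrays of 6 h EDL lay under the minimum level of 5. Slc16a1 therefore entered the test through the 12 h and 18 h arrays, where it was high, and its call is given with no fold. Ezr, which encodes the ezrin that Nherf1 binds, differed by -0.19, -0.26 and -0.14 and was not called.

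**Figure D4:**
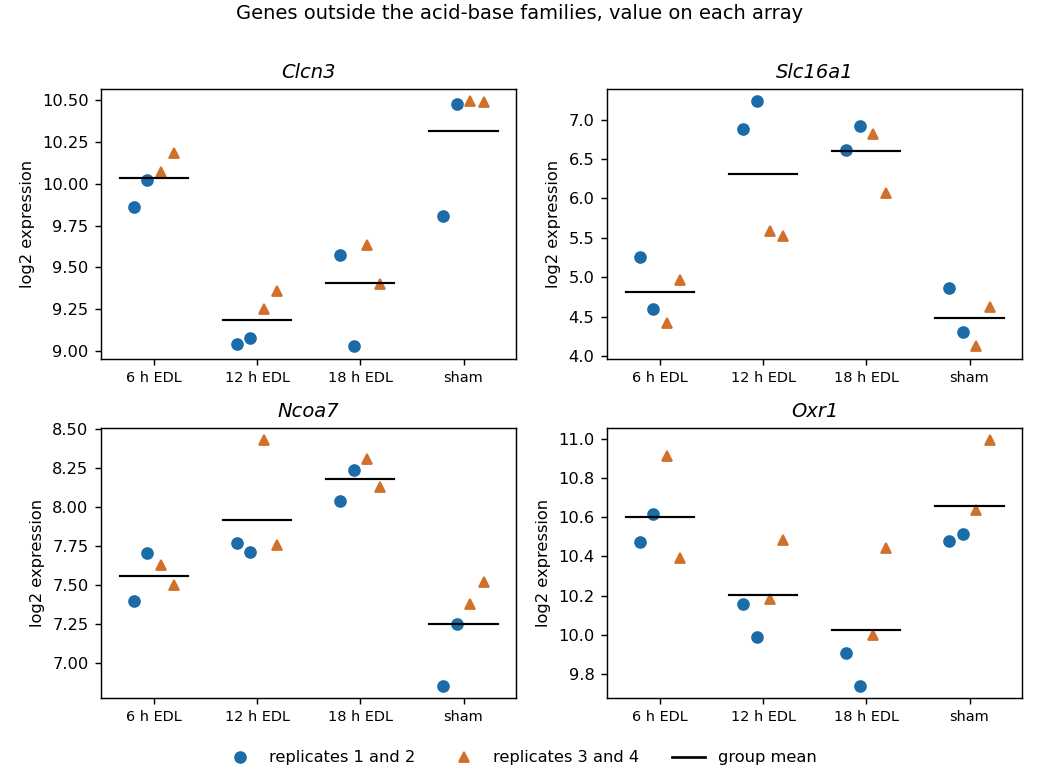
Log2 expression (y axis) of 4 genes outside the acid-base families on each of the 16 arrays, by group (x axis), with lines for the group means. Circles are replicates 1 and 2 and triangles replicates 3 and 4. In Clcn3 and Ncoa7 the 12 h and 18 h arrays do not overlap with sham. Over all tested genes, 12.9% did not overlap with sham at 12 h and 15.7% at 18 h EDL. Slc16a1 entered the test through its 12 h and 18 h arrays, where it was high, so nothing is read from its lack of overlap.

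The cell types of the tissue were read from marker lists. Foxi1, the transcription factor that sets up proton-secreting cells, was the 1 tested marker of clear and narrow cells outside the families. It had means of 7.70, 7.75 and 7.92 in 6, 12 and 18 h EDL and 7.70 in sham, and was not called. The log2 of the summed level of the 6 such markers ranged from 7.85 to 8.12 in 6 h EDL, 7.87 to 8.22 in 12 h EDL, 7.86 to 8.33 in 18 h EDL and 7.42 to 8.35 in sham. Of 10 principal cell markers, all tested, Aqp9, a water and solute channel, and Ggt1 fell at 12 h and 18 h EDL, by 1.42 and 2.23 for Aqp9 on the log2 scale (limma adjusted p = 0.00116 and 2.34e-05) and 0 rose. For the summed principal cell markers, the log2 ranged from 15.67 to 15.87 in 6 h EDL and 15.52 to 15.83 in sham. In 12 h EDL it ranged from 15.29 to 15.65, and in 18 h EDL from 15.33 to 15.65. Both of these ranges lay below that of 6 h EDL and overlapped with sham. Of the other lists, 1 of 6 basal cell markers fell at 12 h EDL, and at 18 h EDL 1 rose and 1 fell, with 1 macrophage, 1 endothelial and 1 skeletal muscle marker also higher. At 6 h EDL 1 skeletal muscle marker (Acta1) and 1 sperm marker (Smcp) were lower. None of the tested erythrocyte, fat, smooth muscle or fibroblast markers was called. The share called over all genes was 0.36%, 8.75% and 11.1% at 6, 12 and 18 h EDL. Of 5 neutrophil markers, 0 were tested. The log2 of their summed level ranged from 4.84 to 10.78 in 12 h EDL. It reached at most 5.12 in 6 h EDL, 5.49 in 18 h EDL and 5.03 in sham. All 3 tested sperm markers were lower at 12 and 18 h EDL. The log2 of the summed level of 7 sperm markers ranged from 8.50 to 11.28 in sham. It ranged from 5.64 to 9.14 in 6 h EDL, 5.63 to 6.97 in 12 h EDL and 5.64 to 6.13 in 18 h EDL. Genes that are high mainly in sham can enter the test through those arrays, so nothing is read from the lower sperm markers, Smcp at 6 h included. In replicates 3 and 4, 9 of 9 tested fibroblast and 7 of 9 tested macrophage markers were lower. The part of cell composition in the values of the acid-base genes was not tested.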

How the data were processed

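RNA from the initial segment of 16 rat samples (4 each of 6 h, 12 h and 18 h EDL and sham) was hybridised to Affymetrix arrays. The deposited table holds 1 log2 value per probe set and array, made by the authors with GCRMA, per the submitters' processing notes; GCRMA in general corrects background by probe sequence and normalizes by quantiles. Its version was not given in the sources used. No array intensities were analysed here, and the number of arrays limits the precision.

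After leaving out 57 control probe sets, 13410 of 31042 probe sets lay at or above 5 on at least 4 of the 16 arrays and were tested. Gene symbols came from a platform annotation of 2016 (20826 probe sets with 1 symbol, 436 with several, 9780 with none), and all 52 members were found by Entrez ID in a RefSeq gene table of GRCr8. Limma 3.58.1 in R 4.3.3 fitted the 4 group means over all arrays (lmFit, eBayes), with Benjamini-Hochberg adjustment over the tested probe sets within each of 6 comparisons and calls at an adjusted p under 0.05. The script was tested on simulated data. A check of whether replicate numbers pair the arrays did not settle it.

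Blocks for replicates 1 and 2 against 3 and 4, and for 3 array sets (replicates 1 and 2; replicates 3 and 4 of 6 h EDL and sham; replicates 3 and 4 of 12 and 18 h EDL), were alternatives, as were other priors, minimum levels, normalizations, thresholds, probe set summaries and each array left out. Named genes were every called member, a list of 23 transport genes, and up to 4 called genes of each further list, or else that with the smallest p. The members and lists were chosen with earlier results of these data known. Promoter sequences are RefSeq's for GRCr8.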

Additional observations from a re-analysis of the deposited data

Results flagged for a closer look

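In groups of 4 arrays, the gap between an extreme array and the nearest of the others was set against the group's range for 21 named members, by Dixon's test at the 95% level. Chance alone passes this test in about 1 of 20 groups, so with 21 members and 4 groups a few flags come by chance, and 4 were found. Where the other 3 arrays hold an identical value, as for Slc9a3 and Car12 below, any differing array is flagged. Car2 in 12 h EDL replicate 3 read 5.93, with the other 3 arrays between 5.07 and 5.08. Slc9a3 in sham replicate 2 read 5.81, with the other 3 sham arrays at 2.22. Car12 read 5.38 in 18 h EDL replicate 3 and 5.64 in sham replicate 4, with the other 3 arrays of each group at 5.66, a value that Car12 held on 9 of the 16 arrays.

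The response of Nherf1 differed between times. Its log2 level was higher by 0.54 at 12 h than at 6 h EDL and by 0.60 at 18 h than at 6 h EDL. Each difference was called by limma over all tested probe sets (adjusted p = 0.0373 and 0.0136). In each, 4 of 4 later arrays lay above all 4 arrays of 6 h EDL. The share of all genes without such overlap was not computed.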

How the results depend on the processing

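Leaving out 1 array at a time gave 0 to 1 members called higher and 0 to 1 lower at 12 h EDL, 1 to 1 higher at 18 h, 0 to 1 between 12 h and 6 h and 1 to 1 between 18 h and 6 h EDL. V0 medians then ranged from -0.317 to -0.0377 at 12 h and from -0.21 to -0.0191 at 18 h EDL. No called difference of a member changed sign in any setting. Family medians close to 0 did, among them V1 at 12 h (down to -0.03), accessory proteins at 6 h (up to 0.02) and Slc4 at 6 h EDL (down to -0.04) with 1 array left out, as did uncalled differences of single genes such as Car3 at 18 h EDL (up to 0.34).

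Whether replicate numbers pair the arrays was not settled. The lowest correlation of same-numbered deviations was 0.0065, against -0.0056 for other numbers of the same replicate pair. Their medians were 0.41 and 0.39, and 10 of 16 arrays correlated best with their own number. The check averaged over the other groups, while a sham array can share an animal with 1 ligated group only, so it cannot exclude pairing. With the replicate block, members called higher and lower numbered 3 and 2 at 12 h EDL, 2 were higher at 18 h EDL, 3 were called between 12 h and 6 h and 2 between 18 h and 6 h EDL; Atp6v1b2 at 12 h EDL then had an adjusted p of 0.0429. With replicates 1 and 2 against 3 and 4 as a block, the counts were 2 higher and 2 lower at 12 h, 2 higher at 18 h and 2 between 12 h and 6 h EDL. With 3 array sets, 2 were higher and 0 lower at 12 h EDL, a fit that rests on replicates 1 and 2 by its construction. Shares called over all genes were computed only for the main fit and for replicates 1 and 2 against 3 and 4 as a block. In that block fit they were 13.9% at 12 h and 16.7% at 18 h EDL. Member counts from the other fits of this section are thus not set against a background.

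The 1 member higher at 12 h EDL (Nherf1) became 0 with no minimum level (adjusted p = 0.0585), with only the groups compared, in replicates 1 and 2 alone, in replicates 3 and 4 alone and with probe sets averaged (adjusted p = 0.0755). The 1 lower at 12 h EDL (Atp6v0a4) became 0 with a trend and robust prior (limma adjusted p = 0.0523) and with no minimum level. It was also 0 with only the groups compared (adjusted p = 0.109) and in replicates 3 and 4 alone. A minimum of 7 gave 0 by construction, since Atp6v0a4, with a highest value of 5.68, was then not tested. At 18 h EDL 0 were higher in replicates 1 and 2 alone and with probe sets averaged, and 1 was lower in replicates 3 and 4 alone (Atp6v0a1, -0.85, adjusted p = 0.0414). Between 12 h and 6 h EDL 0 were called with no minimum, only the groups compared, replicates 3 and 4 alone or probe sets averaged, and 4 in replicates 1 and 2 alone; between 18 h and 6 h EDL 0 were called in replicates 3 and 4 alone and with probe sets averaged. Fewer arrays or more probe sets tested are part of several of these fits, and beyond that the cause was not tested. At an adjusted p under 0.01, or with a fold of at least 2, 0 members were called in any comparison.

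Family medians moved as follows: accessory proteins at 6 h EDL to -0.16 in replicates 1 and 2 and 0.11 in replicates 3 and 4, and at 12 h and 18 h EDL to 0 with no minimum; V0 at 18 h EDL to 0.0546 and -0.217 in these replicate pairs; carbonic anhydrases to -0.63 at 6 h and -0.56 at 12 h EDL with a minimum of 7, which leaves Car3 and Car5b; Slc9 to -0.29 at 6 h EDL in replicates 1 and 2 and 0.0514 at 12 h EDL with a minimum of 7; and Slc4 to 0.13 at 12 h EDL in replicates 3 and 4. The accessory medians of 0 were those of Atp6ap1l, which lay at 2.22 on every array and entered only with no minimum. Centring or normalizing again moved no count of calls. The median difference from sham over all tested probe sets then lay between -0.02 and 0.01. With 4 arrays a group the median 95% interval of a member reached 0.38 to either side, which limits what could be called, and probe sets near background, Atp6v0a4 among them, may understate a change.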

Other observations

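Cftr, the apical chloride and bicarbonate channel of principal cells, had a wide spread between arrays of 1 group. It read 9.49, 10.17, 10.45 and 9.74 in 6 h EDL, 5.71, 4.38, 10.24 and 8.22 in 12 h EDL, 9.73, 9.84, 10.87 and 7.99 in 18 h EDL, and 8.32, 10.02, 10.23 and 10.35 in sham. The 2 lowest of all 16 values were replicates 1 and 2 of 12 h EDL. Its 12 h difference of -2.59 ± 0.99 was not called (limma adjusted p = 0.145), with -4.13 in replicates 1 and 2 and -1.06 in replicates 3 and 4.

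Nherf2, a scaffold related to Nherf1, was not tested, with means of 4.78, 4.87 and 4.65 in 6, 12 and 18 h EDL and 4.77 in sham. Of the 18 further probe sets of the acid-base genes, 8 were tested. Their differences from sham had the sign of the chosen probe set for 7, 7 and 6 of 8 genes at 6, 12 and 18 h EDL, and 0 were called.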
